A study of Mus musculus with 2 samples.

Results

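Chemokines and their receptors were followed in the ureters of newborn mice that lacked Rbpj, the transcription factor of Notch signalling, in a mesenchymal lineage. The members were taken by name: every gene spot whose symbol in the array files was that of a CC, CXC or CX3C chemokine or of a receptor for these ligands. This gave 51 genes (34 ligands and 17 receptors) on 68 probes and 272 spots per array, out of 39429 probes and 157716 gene spots. A gene was tested where it was well above background, and 36 of the 51 members were, among 21143 genes tested over the whole array.

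The study hybridised total RNA of ureters from NMRI mice at postnatal day 4 to 2 dual-colour Agilent arrays, with an Rbpj-cKO RNA and a control RNA labelled in different dyes on each. The Rbpj-cKO genotype was Tbx18(cre/+);Rbpj(fx/fx). In it cre replaces an allele of Tbx18 and acts where Tbx18 is active, which in this organ is the undifferentiated mesenchyme around the epithelial tube that gives rise to its smooth muscle and fibroblasts. Control ureters were Tbx18(+/+) and carried a floxed Rbpj allele beside an allele recorded as not determined. The control therefore held both Tbx18 alleles and no cre, and the loss of Rbpj and the changed Tbx18 locus cannot be told apart in any ratio. Array 1 paired RNAs labelled female, with the Rbpj-cKO RNA in red, and array 2 paired RNAs labelled male, with the Rbpj-cKO RNA in green. The sex label, dye and replicate number thus change together. The labels do not say how many animals each RNA stands for. The p-values thus rest on these 2 pairs alone, with a variance that draws on all genes, and a spread between animals cannot be read from them.

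Chemokines are small secreted or membrane-held proteins that bind receptors with a membrane-spanning, G-protein-coupled fold and guide cells up a gradient. Homeostatic ligands such as Cxcl12, Ccl19 and Cxcl13 are made by stromal cells and place leukocytes and progenitors in tissues at rest, whereas inflammatory ligands such as Ccl2, Cxcl1, Cxcl9 and Cxcl10 are switched on by cytokines, NF-kB and interferon and recruit monocytes, neutrophils and T cells. The receptors sit mainly on leukocytes, with Cxcr4 also on endothelial and progenitor cells.

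Facts of the arrays bear on what follows. Between 71.8% and 74.0% of gene spots were well above background in each channel, and 0 spots were saturated. Rbpj itself had a log2 ratio of Rbpj-cKO over control of -0.92 on array 1 and -1.10 on array 2 (mean -1.01 ± 0.13, SD, n = 2; limma adjusted p = 0.0873), whereas Tbx18 averaged 0.08 ± 0.11 (limma adjusted p = 0.742). The Y-linked transcripts Ddx3y and Eif2s3y had log2 ratios of 4.23 and 4.26 on array 1, where both RNAs are labelled female. On array 2, where both RNAs are labelled male, they had -0.54 and -0.19. The Rbpj-cKO RNA labelled female thus went against its label. Within array 1 a difference in sex and the difference in genotype cannot be told apart. Adipocyte and hepatocyte markers also differed between channels. The summed level of 8 adipocyte markers was 98750 and 110735 in the Rbpj-cKO RNAs against 714206 and 251415 in the control RNAs, and that of 8 hepatocyte markers was 12796 and 12017 in the Rbpj-cKO RNAs against 8904 and 62794 in the control RNAs. Sums here and below are of normalized intensities on the linear scale. The part of these differences in any chemokine result was not tested.

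No member passed the adjusted threshold of 0.05 in limma, in either direction. Over all genes the same test called 0% higher and 0.00473% lower, which is a single gene. At an unadjusted p below 0.05, 5 of the 36 members (13.9%) were higher in Rbpj-cKO ureters, namely Cxcl12, Ccl19, Cxcl16, Cxcl13 and Ccl27a, against 6.98% of all genes. Cxcl13 passed the background limit through the Rbpj-cKO RNAs and is left out where both genotypes must pass it, as 31 members did. In the other direction 2 members (5.56%), Ccl11 and Cxcl9, were lower, against 7.02% of all genes. Of the tested members 13 (36.1%) were higher on both arrays, beside 31.7% of all genes, and 7 (19.4%) were lower on both, beside 29.8%. The remaining 16 went opposite ways, 13 of them lower on array 1 and higher on array 2 (36.1%, beside 22.3% of all genes). No member was at least 1.5-fold higher on both arrays or at least 1.5-fold lower on both, which 0.402% and 0.795% of genes were. The median log2 ratio over the members was -0.02 for array 1 and 0.10 for array 2, against -0.01 and 0.01 over all genes.

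**Figure D1:**
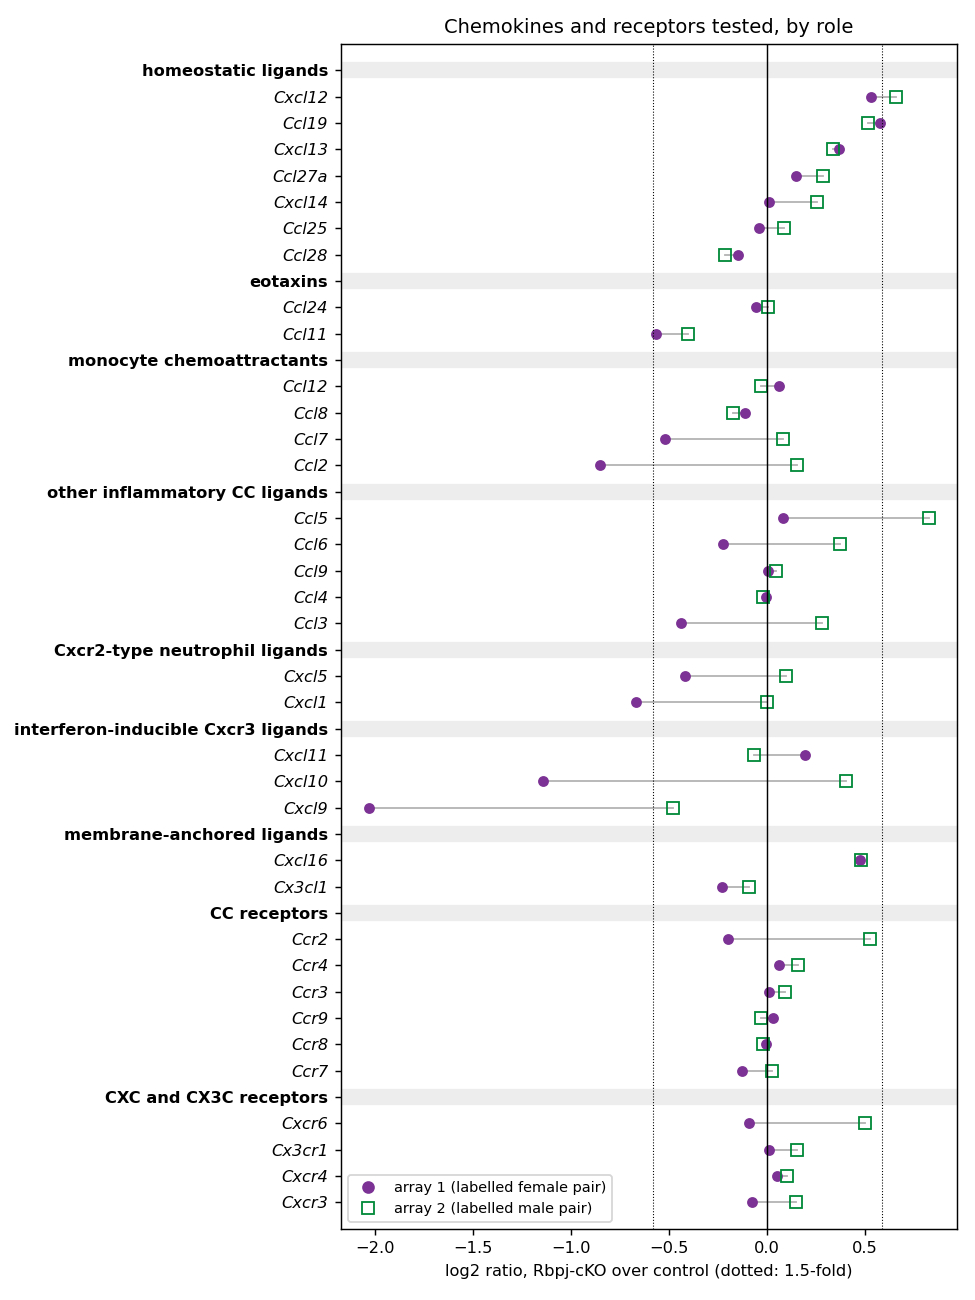
Log2 ratio of Rbpj-cKO over control for 35 of the chemokines and receptors tested, on array 1 (circles) and array 2 (open squares), grouped by role. Homeostatic ligands lie mostly right of 0 on both arrays, while Cxcl10, Ccl2 and Cxcl1 lie beyond the 1.5-fold line to the left on array 1 and at or right of 0 on array 2, and Cxcl9 is left of 0 on both.

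All 7 homeostatic ligands were tested, Cxcl13 through the Rbpj-cKO RNAs alone. Of them, 5, with Cxcl13 among them, were higher on both arrays (beside 31.7% of all genes). Ccl28 alone was lower on both (beside 29.8%). Cxcl14 is among the 5 but lay near 0 on array 1, from -0.02 to 0.05 over the alternative settings. Ccl27a is among them by its brightest probe, while its dimmest probe had opposite signs on the arrays. The median log2 ratio of the 7 ligands was 0.15 for array 1 and 0.28 for array 2. Below, levels are normalized log2 intensities, comparable between RNAs for a given probe but not between genes.

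Cxcl12, the ligand of Cxcr4 that holds blood progenitors and guides vessels and neurons, stood at 14.83 and 14.96 in the Rbpj-cKO RNAs of arrays 1 and 2, against 14.30 and 14.31 in the control RNAs. Both Rbpj-cKO values lay above both control values. How many of all genes show no overlap between the groups was not counted, so that such a gap describes a member and sets it apart from no other gene. The log2 ratios were 0.53 and 0.66, a mean of 0.59 ± 0.09 (SD, n = 2), or 1.51-fold, with a 95% interval of 0.38 to 0.80 and a limma adjusted p of 0.133. Its mean ratio lay at the 99.2nd percentile of all genes. The gene had 2 usable probes, whose means were 0.38 and 0.59, and the brighter of them, chosen by its brightness, had the larger ratio. In bulk RNA a change in the number of cells of a type and a change in the RNA per cell cannot be told apart, here or for any member below.

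Ccl19, the ligand of Ccr7 that draws T cells and dendritic cells into lymphoid tissue, stood at 11.13 and 11.04 in the Rbpj-cKO RNAs and at 10.55 and 10.52 in the control RNAs. The groups did not overlap. Its log2 ratios were 0.58 and 0.52 (mean 0.55 ± 0.04, SD, n = 2; 1.46-fold; limma adjusted p = 0.135). The 3 usable probes of this gene gave means from 0.38 to 0.55, all positive on both arrays. The first 30 bases of 2 of them lie, on the gene's strand, in the RefSeq window from 250 bases before to 50 bases after the start of Ccl19, and which transcripts those probes read was not tested. The array's annotation places all 3 probes on the plus strand of chromosome 4, whereas RefSeq places Ccl19 on the minus strand. Whether the annotated position is that of another copy of the gene was not tested.

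Cxcl13, which attracts B cells through Cxcr5, stood at 7.51 and 7.07 in the Rbpj-cKO RNAs and at 7.14 and 6.74 in the control RNAs. Across arrays the groups overlapped, since the Rbpj-cKO RNA of array 2 was below the control RNA of array 1, but within each array the Rbpj-cKO RNA was the higher. The log2 ratios were 0.37 and 0.34 (mean 0.35 ± 0.02, SD, n = 2; limma adjusted p = 0.208). This was a dim probe, with 2 of 4 spots well above background in the control RNA of array 2.

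Ccl27a, a skin-associated ligand of Ccr10, stood at 12.93 and 12.99 in the Rbpj-cKO RNAs and at 12.78 and 12.70 in the control RNAs. Its log2 ratios were 0.15 and 0.28 (mean 0.22 ± 0.10, SD, n = 2; limma adjusted p = 0.355). Its 3 usable probes gave means from 0.02 to 0.22. The bright ones also match near-identical copies (Ccl27b and Gm13306), so that the locus cannot be told apart from these copies. The dimmest probe, whose accessions name Ccl27a alone, gave the lowest mean, with opposite signs on the arrays (0.07 and -0.02). It shares a stretch of 20 bases with a probe named Gm20878. Cxcl14, a ligand made by epithelium and stroma, had log2 ratios of 0.01 and 0.25 (mean 0.13 ± 0.17, SD, n = 2; limma adjusted p = 0.609), and Ccl25, the gut and thymus ligand of Ccr9, had -0.04 and 0.08.

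Ccl28, a ligand of Ccr10 made by mucosal epithelium, went the other way. It stood at 9.82 and 9.70 in the Rbpj-cKO RNAs and at 9.97 and 9.92 in the control RNAs, without overlap. The mean log2 ratio was -0.18 ± 0.05 (SD, n = 2; limma adjusted p = 0.385).

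The membrane-anchored ligands split. Cxcl16, a transmembrane ligand and scavenger receptor that binds Cxcr6, stood at 11.25 and 11.12 in the Rbpj-cKO RNAs and at 10.78 and 10.64 in the control RNAs. Its log2 ratio was 0.48 on either array (1.39-fold; 95% interval 0.28 to 0.67; limma adjusted p = 0.152). Cx3cl1, the fractalkine of endothelium and epithelium, stood at 10.91 and 11.29 in the Rbpj-cKO RNAs and at 11.14 and 11.38 in the control RNAs. It was lower within each array, with log2 ratios of -0.23 and -0.09 (mean -0.16 ± 0.09, SD, n = 2; limma adjusted p = 0.467), while across arrays the groups overlapped.

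For reference to the array, the first 30 bases of the 60-base probe behind each of the members that lay furthest from 0 are shown, 5′ to 3′ as in the files, each followed by the whole probe's position in mm9.
Cxcl12: gctgtaaacctcctaccgtatgtgggaatt (chr6:117125026-117125085, plus strand)
Ccl19: acctccagaccagctctgggtggatcgcat (chr4:42250105-42250164, plus strand)
Cxcl16: tgtaaagttctaggttcaaccctcccacta (chr11:70267780-70267839, minus strand)
Ccl11: taggagtaactgaggataatagcagcttat (chr11:81876072-81876131, plus strand)
Cxcl9: aagtcgtcgtcgttcaaggaagactacata (chr5:92752796-92752855, minus strand)
Cxcl11: agaccaggagtttcaggacagccagggcta (chr5:92788567-92788626, minus strand)

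The Cxcl11 probe is shown for another reason. Cxcl11, an interferon-inducible ligand of Cxcr3, was read at 16.68 and 16.53 in the Rbpj-cKO RNAs and at 16.49 and 16.60 in the control RNAs, with log2 ratios of 0.20 and -0.07. Of 39429 array probes, 7 with other gene names hold a stretch of 20 bases of this probe on either strand, among them probes for Elk1, Med16 and Ndor1. For the brightest probe of every other member that number was 0. Whether other transcripts add to the reading of Cxcl11 was not tested, and its ratio is uncertain. The second Cxcl11 probe shares no such stretch and gave ratios of 0.10 and -0.01.

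Among the ligands of eosinophils, Ccl11 (eotaxin), which acts through Ccr3, stood at 12.32 in both Rbpj-cKO RNAs and at 12.89 and 12.73 in the control RNAs. The groups did not overlap, and the log2 ratios were -0.57 and -0.41 (mean -0.49 ± 0.11, SD, n = 2, or 0.714-fold; 95% interval -0.71 to -0.27; limma adjusted p = 0.169). This was the lowest mean ratio among the members of equal sign on both arrays other than Cxcl9, at the 2.80th percentile of all genes. Ccl24, which acts on the same receptor, had log2 ratios of -0.06 and 0.00.

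Among the tested members, the interferon-inducible ligands Cxcl9 and Cxcl10, which draw T cells through Cxcr3, had the largest SDs between the pairs. Cxcl9 stood at 6.77 and 7.06 in the Rbpj-cKO RNAs and at 8.81 and 7.54 in the control RNAs. Both control values were above both Rbpj-cKO values, but array 1 gave a log2 ratio of -2.03 and array 2 of -0.48 (mean -1.26 ± 1.10, SD, n = 2; 0.418-fold; unadjusted p = 0.0260; limma adjusted p = 0.299). Its second probe gave -1.71 and -0.42. Cxcl10 stood at 8.05 and 8.50 in the Rbpj-cKO RNAs and at 9.19 and 8.09 in the control RNAs. Array 1 gave a log2 ratio of -1.14 and array 2 of 0.40 (mean -0.37 ± 1.09, SD, n = 2; limma adjusted p = 0.750), so the pairs went opposite ways and the mean stands for neither. Cxcl11, Cxcl10, Cxcl1, Ccl7 and the other members given here beyond the 12 of largest mean ratio and the ligand and receptor pairs were picked for description after their values were seen.

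The inflammatory ligands were also counted as a set, with Cxcl9, Cxcl10 and Cxcl11 in it. Of 14 tested members that attract monocytes, neutrophils or effector T cells (of 17 in the set), 10 were lower on array 1 and 5 on array 2, where 52.1% and 45.9% of all genes were lower. Their median log2 ratio was -0.32 for array 1 and 0.06 for array 2. Of these, 2 were higher on both arrays and 3 were lower on both, beside 31.7% and 29.8% of all genes.

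Ccl2, the main ligand of Ccr2 on monocytes, stood at 10.09 and 10.35 in the Rbpj-cKO RNAs and at 10.95 and 10.20 in the control RNAs. Array 1 gave a log2 ratio of -0.86 and array 2 of 0.15 (mean -0.35 ± 0.71, SD, n = 2; limma adjusted p = 0.625). The control RNA of array 1 was the highest of the 4 RNAs. Ccl7, a related monocyte ligand, had ratios of -0.52 and 0.08, with levels of 9.04 and 9.22 in the Rbpj-cKO RNAs and of 9.56 and 9.14 in the control RNAs. Ccl8, by contrast, was lower within both pairs, with ratios of -0.11 and -0.17 (mean -0.14 ± 0.04, SD, n = 2; limma adjusted p = 0.483). Ccl12 had 0.06 and -0.03. Ccl2, Ccl7, Ccl8, Ccl11 and Ccl12 lie next to each other on chromosome 11 in mm9 and gave 3 different sign patterns.

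Of the Cxcr2 ligands that draw neutrophils, Cxcl1 stood at 7.03 and 6.96 in the Rbpj-cKO RNAs and at 7.70 and 6.96 in the control RNAs. Array 1 gave a log2 ratio of -0.67 and array 2 of 0.00. The control RNA of array 1 again stood apart from the other RNAs. Cxcl5 had -0.42 and 0.10, from a probe with 0 of 4 spots well above background in the control RNA of array 2. Ccl5, a ligand made by T cells and platelets, had the reverse arrangement of sizes. It stood at 8.08 and 8.51 in the Rbpj-cKO RNAs and at 7.99 and 7.68 in the control RNAs, with ratios of 0.08 and 0.83 (mean 0.46 ± 0.53, SD, n = 2; limma adjusted p = 0.406). Of the other inflammatory CC ligands, Ccl3 had -0.44 and 0.28, Ccl6 had -0.22 and 0.37, and Ccl4 and Ccl9 lay within 0.05 of 0 on both arrays.

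**Figure D2:**
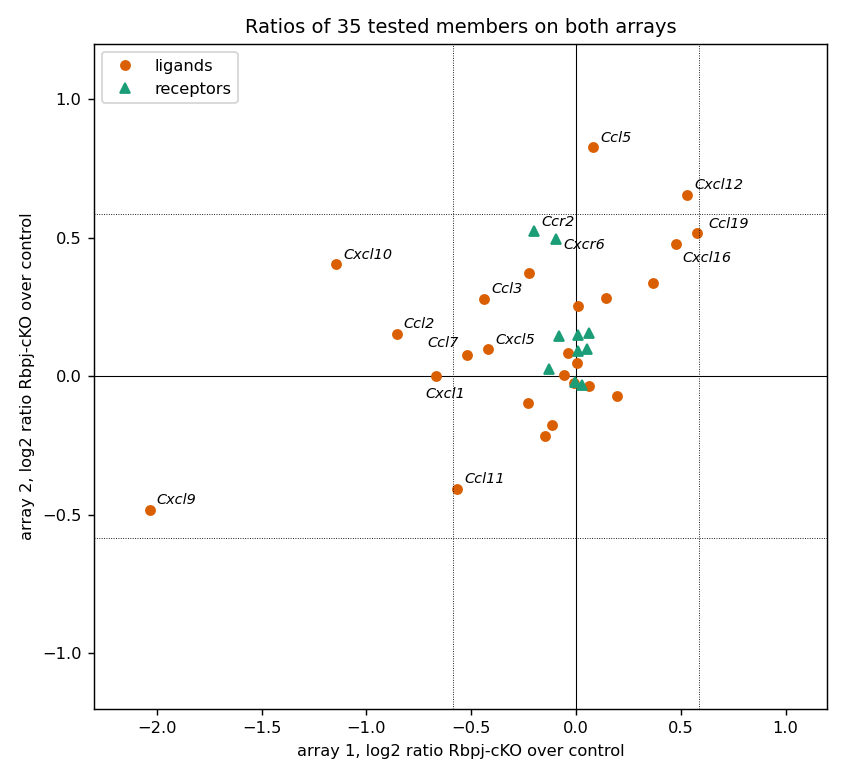
Log2 ratio of Rbpj-cKO over control on array 1 (horizontal) and array 2 (vertical) for 35 of the members tested, ligands as circles and receptors as triangles, with dotted lines at 1.5-fold. Cxcl12, Ccl19, Cxcl16 and Cxcl13 lie to the upper right, Ccl11 and Cxcl9 to the lower left, and Cxcl10, Ccl2, Ccl7 and Ccl3 to the upper left.

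Counted the other way, by which of the 4 RNAs gave the highest level, the control RNA of array 1 did so for 13 of 36 members (36.1%), 12 of them ligands, beside 29% of all genes. It did so for 8 of the 14 inflammatory ligands tested. The Rbpj-cKO RNA of array 1 was highest for 9 members (25%, beside 22.7% of all genes). That of array 2 was highest for 9 members (25%, beside 27.1%). The control RNA of array 2 was highest for 5 members (13.9%, beside 21.2%). Members at least 1.5-fold lower on array 1 numbered 4 (11.1%, beside 3.7% of genes): Cxcl9, Cxcl10, Ccl2 and Cxcl1. On array 2 no member was so lowered (1.38% of genes). At least 1.5-fold higher were 0 members on array 1 (0.955% of genes), while on array 2 Ccl5 and Cxcl12 were at least 1.5-fold higher (5.56%, beside 1.22% of genes). Sex label, dye and pair change together across the arrays and cannot be told apart here, and the difference between the arrays was not tested. Y-linked transcripts also differed between the RNAs of array 1 (Ddx3y at 4.23) and far less on array 2 (-0.54). For the control RNA of array 1, sex and genotype thus cannot be told apart either.

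**Figure D3:**
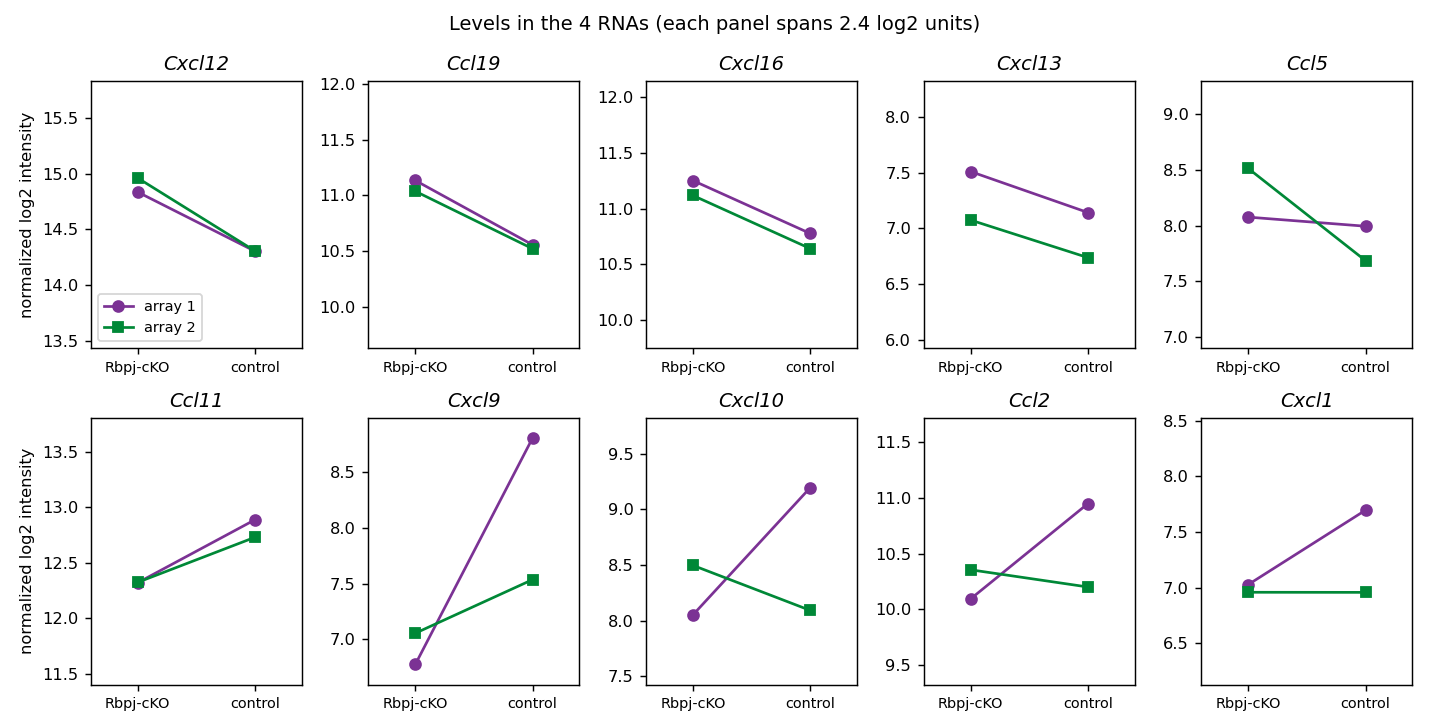
Normalized log2 intensity of selected members in the 4 RNAs, Rbpj-cKO left of control within each array. For Cxcl12, Ccl19, Cxcl16, Ccl5, Ccl11 and Cxcl9 the groups do not overlap, whereas for Cxcl10, Ccl2 and Cxcl1 the control RNA of array 1 stands above the other RNAs. How many of all genes show no overlap was not counted.

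By its brightest probe no receptor was 1.5-fold higher or lower on either array. The second Cxcr6 probe reached 0.61 on array 2, and over the alternative settings array 2 reached 0.97 for Ccr2 and 0.74 for Cxcr6. Of 11 tested, 5 were higher on both arrays and 1, Ccr8, was lower on both, with medians of 0.01 on array 1 and 0.15 on array 2. Cxcr4, the receptor of Cxcl12, stood at 8.62 and 8.68 in the Rbpj-cKO RNAs and at 8.56 and 8.58 in the control RNAs, a mean log2 ratio of 0.08 ± 0.03 (SD, n = 2; 95% interval -0.12 to 0.27; limma adjusted p = 0.728). The interval of Cxcr4 lay wholly below that of the brighter Cxcl12 probe. No interval was computed for the second Cxcl12 probe, whose mean was 0.38, and Cxcl12 had the highest mean ratio of the members. Ccr7, the receptor of Ccl19, stood at 7.63 and 7.68 in the Rbpj-cKO RNAs and at 7.76 and 7.65 in the control RNAs (mean -0.05 ± 0.11, SD, n = 2; 95% interval -0.27 to 0.17; limma adjusted p = 0.853).

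Cx3cr1, the fractalkine receptor of resident macrophages, stood at 11.15 and 11.02 in the Rbpj-cKO RNAs and at 11.14 and 10.87 in the control RNAs (mean 0.08 ± 0.10, SD, n = 2; limma adjusted p = 0.744). Its 3 probes gave means from -0.06 to 0.08. Ccr2, the receptor of Ccl2 on monocytes, stood at 7.43 and 7.74 in the Rbpj-cKO RNAs and at 7.63 and 7.22 in the control RNAs, with ratios of -0.20 and 0.52 (mean 0.16 ± 0.51, SD, n = 2; limma adjusted p = 0.784). Ccr2 and its ligand thus had the same signs on each array. Cxcr6, the receptor of Cxcl16 on T and NK cells, had ratios of -0.09 and 0.50 (limma adjusted p = 0.660). Ccr4 had 0.06 and 0.16, Cxcr3 had -0.08 and 0.15, Ccr3 had 0.01 and 0.09, Ccr8 had -0.00 and -0.02, and Ccr9 had 0.03 and -0.03.

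Members left out of the test were 15, and 9 of them were not well above background in more than a single spot of any RNA. These were Ccl20, Ccl22, Ccl26, Cxcl3, Cxcl15, Cxcl17, Cxcr1, Cxcr2 and Cxcr5. Cxcr1 and Cxcr2 are receptors of neutrophils, and Cxcr5 is that of Cxcl13. A trio of others, Ccl1 (by 1 of its probes), Ccr10 and Cxcl2, was well above background in 4 of 4 spots of the control RNA of array 1 and in 0 of 4 spots of each of the other RNAs. Ccl17, Ccr1 and Ccr6 were above it in some spots of several RNAs. Cxcl2 is a close relative of Cxcl1 in the same cluster on chromosome 5, and no ratio is given for it. Ccl21 genes were not analysed here.

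Promoters of Cxcl10, Cxcl1 and Cxcl9, which are 3 of the 4 members at least 1.5-fold lower on array 1, and of Cxcl12 are shown as the 250 bases before the RefSeq start of transcription (GRCm38.p6, 5′ to 3′ on the gene's strand), with motif matches in capitals. The motifs searched on both strands were GTGGGAA for Rbpj, GAAA followed after any 2 bases by GAAA for interferon-stimulated elements, and GGG followed after any 3 bases by TTCC for NF-kB sites. RefSeq promoters were at hand for 36 of the 51 members.
Cxcl10 (chr5:92348890-92349139, minus strand): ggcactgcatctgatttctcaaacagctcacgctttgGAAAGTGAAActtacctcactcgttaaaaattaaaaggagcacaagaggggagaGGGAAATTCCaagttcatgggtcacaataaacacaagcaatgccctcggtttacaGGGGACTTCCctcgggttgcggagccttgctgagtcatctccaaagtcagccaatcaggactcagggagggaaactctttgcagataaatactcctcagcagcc
Cxcl1 (chr5:90890995-90891244, plus strand): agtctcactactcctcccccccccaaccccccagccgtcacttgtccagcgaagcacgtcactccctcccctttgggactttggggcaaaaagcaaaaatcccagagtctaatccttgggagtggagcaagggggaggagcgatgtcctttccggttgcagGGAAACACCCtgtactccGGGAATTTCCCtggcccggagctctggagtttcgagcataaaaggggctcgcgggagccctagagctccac
Cxcl9 (chr5:92328080-92328329, minus strand): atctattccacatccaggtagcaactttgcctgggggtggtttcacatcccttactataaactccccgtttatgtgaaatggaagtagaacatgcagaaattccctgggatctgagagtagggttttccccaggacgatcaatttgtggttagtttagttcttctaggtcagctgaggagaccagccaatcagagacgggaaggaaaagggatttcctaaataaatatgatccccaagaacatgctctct
Cxcl12 (chr6:117168285-117168534, plus strand): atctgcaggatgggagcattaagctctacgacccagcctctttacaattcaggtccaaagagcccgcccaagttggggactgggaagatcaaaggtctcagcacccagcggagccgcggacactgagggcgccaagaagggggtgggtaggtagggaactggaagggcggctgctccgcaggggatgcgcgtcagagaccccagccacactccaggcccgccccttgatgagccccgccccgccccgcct
The Cxcl10 window holds 1 interferon-type match and 2 NF-kB-type matches. The Cxcl1 window holds 3 NF-kB-type matches, of which a pair overlap on opposite strands. No match to these letters was found in the windows of Cxcl9 and Cxcl12. Of 32851 promoters, 4.65% held the NF-kB letters and 2.98% the interferon letters, and among members 8 of 36 held the NF-kB letters, namely Ccl1, Ccl9, Ccl20, Ccr3, Cxcl1, Cxcl2, Cxcl3 and Cxcl10, and 3 of 36 the interferon letters, namely Ccl19, Cxcl10 and Cxcl14. The Rbpj letters occurred in 5.42% of promoters and in 1 member, Ccr3.

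Genes that act around chemokines were counted from lists fixed by function, and none of their members passed the adjusted threshold. Beside the counts below, 31.7% of all genes were higher on both arrays and 29.8% were lower on both. Of 5 atypical receptors tested (of 6), which clear or store chemokines without G-protein signalling, both arrays had 2 lower and none higher, and Ackr3, the scavenger of Cxcl12, averaged -0.06. Of 23 signalling genes tested (of 24), 6 were higher and 10 lower on both, among them Rgs2, which shortens G-protein signals, at -0.49 ± 0.09 (SD, n = 2; limma adjusted p = 0.164). All 11 processing genes were tested, with 6 higher and 1 lower on both. The lower one was Mmp9, a protease that trims chemokines, with ratios of -0.61 and -0.51 (limma adjusted p = 0.136). Of 15 upstream cytokine and NF-kB genes tested (of 19), 13 were lower on array 1 and 4 on array 2, beside 52.1% and 45.9% of all genes. Tnf, which induces inflammatory chemokines, had ratios of -0.39 and -0.44 (limma adjusted p = 0.179), and Il1b had -0.66 and 0.03.

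Markers of the cells that make or receive chemokines are given as sums, as medians or as both. The 8 markers of all leukocytes summed to 18981 and 19408 in the Rbpj-cKO RNAs and to 19702 and 17896 in the control RNAs. The 10 macrophage markers summed to 34363 and 33790 in the Rbpj-cKO RNAs and to 34177 and 34153 in the control RNAs. Of 8 T and NK markers 4 were tested, and Cd3d, Cd8a and Ncr1 were not well above background. Most leukocyte lists had a negative median on array 1 and a positive one on array 2, as the inflammatory ligands had. The list of all leukocytes had medians of -0.11 and 0.05, that of T and NK cells -0.13 and 0.09, and that of neutrophils -0.08 and 0.05. Lists of mast cells, dendritic cells and B cells had the same signs. The macrophage list had -0.06 and -0.01. Sums did not follow the medians in every list. The T and NK markers summed to 3338 and 3682 in the Rbpj-cKO RNAs and to 3204 and 4074 in the control RNAs. On each array this was the reverse of their median. The neutrophil markers summed to 74609 and 77462 in the Rbpj-cKO RNAs and to 74499 and 70450 in the control RNAs. Their sum was thus not lower in the Rbpj-cKO RNA of array 1. The 4 mast cell and basophil markers tested (of 6) had medians of -0.32 and 0.62 and summed to 3496 and 3811 in the Rbpj-cKO RNAs against 4417 and 2560 in the control RNAs. The 5 dendritic cell markers tested (of 7) had medians of -0.11 and 0.26, and the 5 B cell markers tested (of 6) had -0.26 and 0.08. Their part in the ratios of the inflammatory ligands was not tested.

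Several other lists were higher or lower in both pairs, where 31.7% of all genes were higher on both arrays and 29.8% lower. All 4 lymphatic endothelial markers tested (of 5) were higher on both arrays, and they summed to 9060 and 7959 in the Rbpj-cKO RNAs against 5834 and 5497 in the control RNAs. The 7 fibroblast markers summed to 585490 and 577790 in the Rbpj-cKO RNAs against 475275 and 499885 in the control RNAs, and 5 of them were higher on both arrays. These lists had the same direction as the homeostatic ligands Cxcl12 and Ccl19. So had the kidney epithelium list, with 6 of 6 tested markers higher on both arrays and sums of 3311 and 2639 in the Rbpj-cKO RNAs against 1941 and 1808 in the control RNAs. The mesothelium list had medians of 0.99 and 0.14 with 4 of 5 higher on both arrays, and the urothelium list had medians of 0.49 and 0.08 with 4 of 8. In the opposite direction, pericyte markers had medians of -0.43 and -0.39, and ureteric smooth muscle markers had -0.17 and -0.38. The part of these lists in the ratios of the ligands was not tested.

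**Figure D4:**
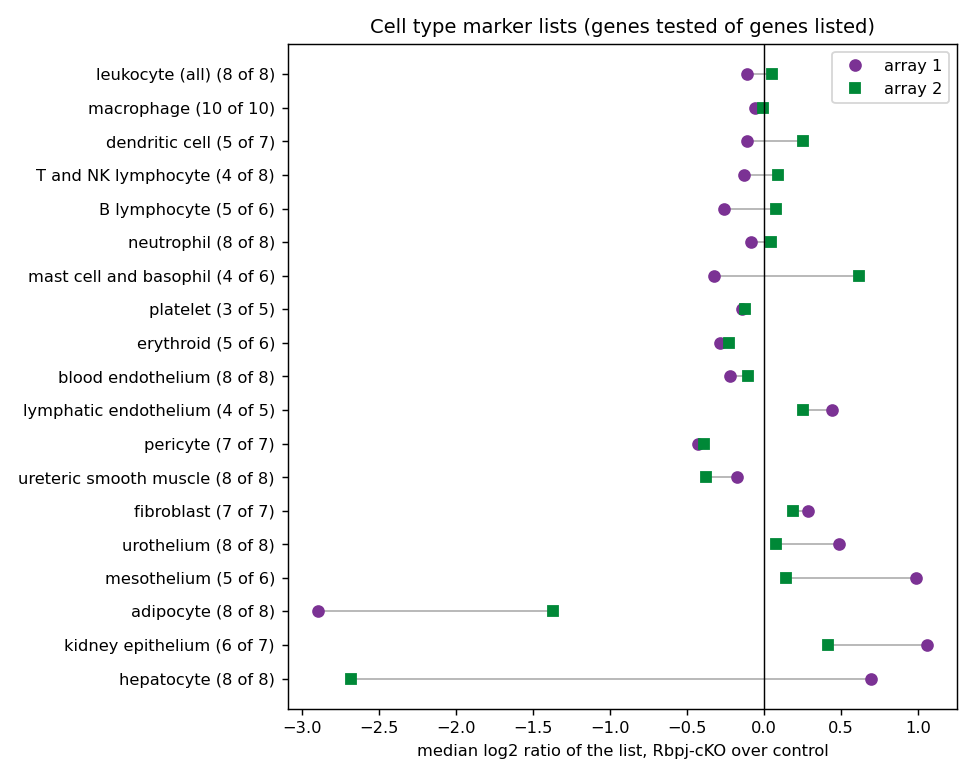
Median log2 ratio of Rbpj-cKO over control of each cell type marker list on array 1 and array 2. Leukocyte and macrophage lists lie near 0, the leukocyte list left of it on array 1 and right of it on array 2. Lymphatic and fibroblast lists lie right of 0 on both arrays, the adipocyte list lies far left on both, and the hepatocyte list lies on opposite sides of 0.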

How the data were processed

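Each deposited spot has a fluorescence intensity per dye, read with Agilent Feature Extraction 10.7.3.1 per the submitters' processing notes. A log10 ratio of red over green stands beside it, per the file headers. The authors' deposited series table holds a score that was read as a signed fold change, and its scale and centring are not given in the sources used here. Both columns of that table had a median of 1 and correlated with the scanner ratios across probes (0.777 and 0.686).

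Background was corrected with normexp on mean signals and local background medians (offset 50), each array was normalized by loess, and the log2 ratios were computed from these deposited intensities. Control spots had weight 0 and spots with an outlier flag (3.34% and 3.12%) were dropped. Every ratio is Rbpj-cKO over control, by the dyes in the labels, and averages the 4 spots of its probe. Probes entered the test where, in 1 genotype or both, over 50% of spots lay well above the background on array 1 and on array 2 alike, and the brightest kept probe stood for its gene. The ratios were tested against 0 with limma 3.58.1 in R 4.3.3, two-sided, with Benjamini-Hochberg adjustment over 21143 genes. The fit has 1 residual degree of freedom, raised to 4.35 by the prior across genes. Levels per RNA came from the same values after quantile normalization of average intensities between arrays, which gives the arrays the same distribution of these intensities. The fit was tested on simulated data. Array number limits the precision throughout.

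All members may be named. By rule, values are given in full for members past the adjusted threshold of 0.05 or at least 1.5-fold different on both arrays (none were), for the 12 members with the largest mean ratio of equal sign on both arrays, and for the pairs Cxcl12 with Cxcr4, Ccl21 with Ccr7, Cx3cl1 with Cx3cr1 and Ccl2 with Ccr2. The members, lists and motifs were chosen with earlier results of these data known. The count of array probes sharing a stretch with a member's probe was made after the values were seen. Probe positions are those of the files (mm9), while promoters come from RefSeq (GRCm38.p6), and the builds were not mixed. Counts over the members include 1 member that is not reported here by name or drawn.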

Additional observations from a re-analysis of the deposited data

How the results depend on the processing

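In all 12 alternative settings no member passed the adjusted threshold. The mean ratio of each of the 17 members named by rule kept its sign in the settings that gave it a value. Settings that change only the fit or the background filter reuse the same ratios of these members, so that no sign could change there. Ccl2, Ccr2 and Ccr7 had opposite signs on the arrays, and the sign of their mean stands for neither pair. The smallest adjusted p of any member ranged from 0.0693 (Cxcl12, with trend and robust settings of limma) to 0.579 (with median centring in place of loess), against 0.133 as reported. Members at least 1.5-fold higher on both arrays numbered 2 (Cxcl12 and Cxcl13) with the scanner's log ratio and 1 (Cxcl12) in the authors' deposited series table, against 0 as reported. Members at least 1.5-fold lower on both numbered 1 (Cxcl9) with an offset of 16, 1 with the scanner's ratio and 1 in the series table, against 0. The causes were not tested. Without the filter on dim probes, 13 of 51 members were lower on both arrays, against 7 of 36, and that setting tests more members by construction. With trend and robust settings limma called 46 genes higher and 49 lower over the array, against 0 and 1. The log2 ratio of Cxcl9 on array 1 ran from -3.38 to -1.87 over the settings. With 1 array left no test could be run, and the members' median ratio was -0.02 to 0.10. No paired analysis was possible because each array is already a pair of Rbpj-cKO and control RNA and the ratio is formed within it.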
